A study of Homo sapiens with 15 samples.

Results

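The genes of the tricarboxylic acid (TCA) cycle and of fatty acid uptake and oxidation were followed through cardiac differentiation of H1 human embryonic stem cells, an established cell line of wild-type genotype. The set was fixed by gene symbol and not by a cut on measured values, but earlier results of these data were known when it was chosen. All 42 genes were found among the 60605 genes of the count table. It held 17 TCA cycle enzymes and 25 fatty acid genes, of which 4 served uptake and supply, 4 the carnitine shuttle, 11 beta-oxidation, 3 the transfer of its electrons and 3 regulation. All 42 passed the filter for low values, which asked for 1 FPKM (fragments per kilobase of exon, scaled to the library total) in any of the 15 libraries and kept 21206 genes for the tests. Of the 42, 33 were at or above 1 FPKM in every library, and CD36 passed only through a NP-ctrl value on day 5.

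Cells were induced to mesendoderm with the WNT activator CHIR99021 on day 0 and received insulin on day 1, and libraries from days 0, 1 and 2 were shared by all arms. From day 2 the cells followed 1 of 3 arms with 1 library each on days 3, 5, 7 and 10. In NP-ctrl, cells were not passaged and differentiated spontaneously without a further inducer. In NP-IWP2, cells stayed in place and were given the WNT secretion blocker IWP2 from day 2 to day 4. In passaged cells, the culture was detached with EDTA, split and replated on day 2, with no WNT inhibitor. By the paper's account, a ROCK inhibitor was added in the differentiation experiments that followed its survival tests. Detachment, the lower density after the split and any such inhibitor cannot be told apart here. All arms descended from the same CHIR99021 treatment in 1 cell line, and each group was a single library of a mixed culture. Total counts ranged from 13254723 to 20250115 per library, and the passaged library of day 3 stood apart in its share of counts from the mitochondrial genome, 1.52% against 3.71% to 10.3% in the other 14. With 1 library per arm and day, replicate cultures are missing throughout, so each interval stands for counting error alone. In every series of 4 values for an arm, the values follow days 3, 5, 7 and 10.

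The TCA cycle oxidises acetyl-CoA in the mitochondrial matrix and passes electrons to the respiratory chain. Fatty acids are taken up, joined to coenzyme A, carried into mitochondria by the carnitine shuttle and shortened to acetyl-CoA by beta-oxidation. Pluripotent cells rely largely on glycolysis, and the heart after birth draws most of its energy from fatty acids. Transcription of both pathways in the heart is driven by estrogen-related receptors (ERR), PPARA and their coactivator PPARGC1A, with nuclear respiratory factor 1 (NRF1) and ETS factors such as GABPA acting on many mitochondrial genes.

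Promoter windows were searched for the letters bound by these factors. RefSeq (GRCh38.p14) gave 52 windows of 300 bases, 250 before and 50 after the gene start, for 36 of the 42 genes. Not matched were CPT1B, DECR1, SDHC, OGDH, LPL and ETFDH. The ERR response element TCAAGGTCA was present in 1 of the 52 windows, that of SDHD, against 0.353% of the 35116 windows of all genes, counting both strands. The NRF1 core CGCATGCG was in 2 windows, those of SDHD and PPARA, against 2.02% of all windows. The ETS letters CCGGAAGT were in 5 windows, of MDH2, SDHD, DLST, IDH3B and CPT2, against 4.14%. A pair of AGGTCA half-sites spaced by 1 base was in 0 of the 52 windows and in 0.0228% of all. The window of SDHD, a membrane anchor of succinate dehydrogenase, is shown because it held 3 of these motifs, and that of MDH2, the mitochondrial malate dehydrogenase, because it held the ETS letters at 2 places. Capitals mark the motifs. In SDHD (chr11:112086623-112086922, plus strand) the NRF1 core starts at -109 from the gene start, the ETS letters at -78 and the ERR element at 11, and the latter pair lie on the opposite strand. In MDH2 (chr7:76047856-76048155, plus strand) the ETS letters start at -113 and -69.
SDHD promoter window: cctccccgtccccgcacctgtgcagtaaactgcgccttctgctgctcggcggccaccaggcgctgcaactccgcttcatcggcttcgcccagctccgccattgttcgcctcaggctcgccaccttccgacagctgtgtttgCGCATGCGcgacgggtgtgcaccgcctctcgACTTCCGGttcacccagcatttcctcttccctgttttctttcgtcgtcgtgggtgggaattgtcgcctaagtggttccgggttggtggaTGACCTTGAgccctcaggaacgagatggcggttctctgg
MDH2 promoter window: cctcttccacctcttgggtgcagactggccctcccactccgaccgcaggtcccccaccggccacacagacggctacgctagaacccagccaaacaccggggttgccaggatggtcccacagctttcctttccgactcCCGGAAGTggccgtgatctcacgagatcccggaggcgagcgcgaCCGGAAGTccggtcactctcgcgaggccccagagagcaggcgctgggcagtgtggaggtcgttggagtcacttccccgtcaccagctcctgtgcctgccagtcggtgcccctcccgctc
These are matches of letters only, and no binding was measured.

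In the plot of levels by library, the 42 genes were ordered by role. The FPKM scale divides by exonic length, so levels can be set side by side between genes, with the reservation that the library kit named by the study is one for long reads while its alignment tools are for short reads. Of the 42, 32 overlap another gene or have a named pseudogene, whose reads may have been split or shared in counting. For IDH3A, ACADM and ETFDH, among others, the highest overlapping gene reached 22.6, 29.4 and 17.3 FPKM, above every level of the gene itself.

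**Figure D1:**
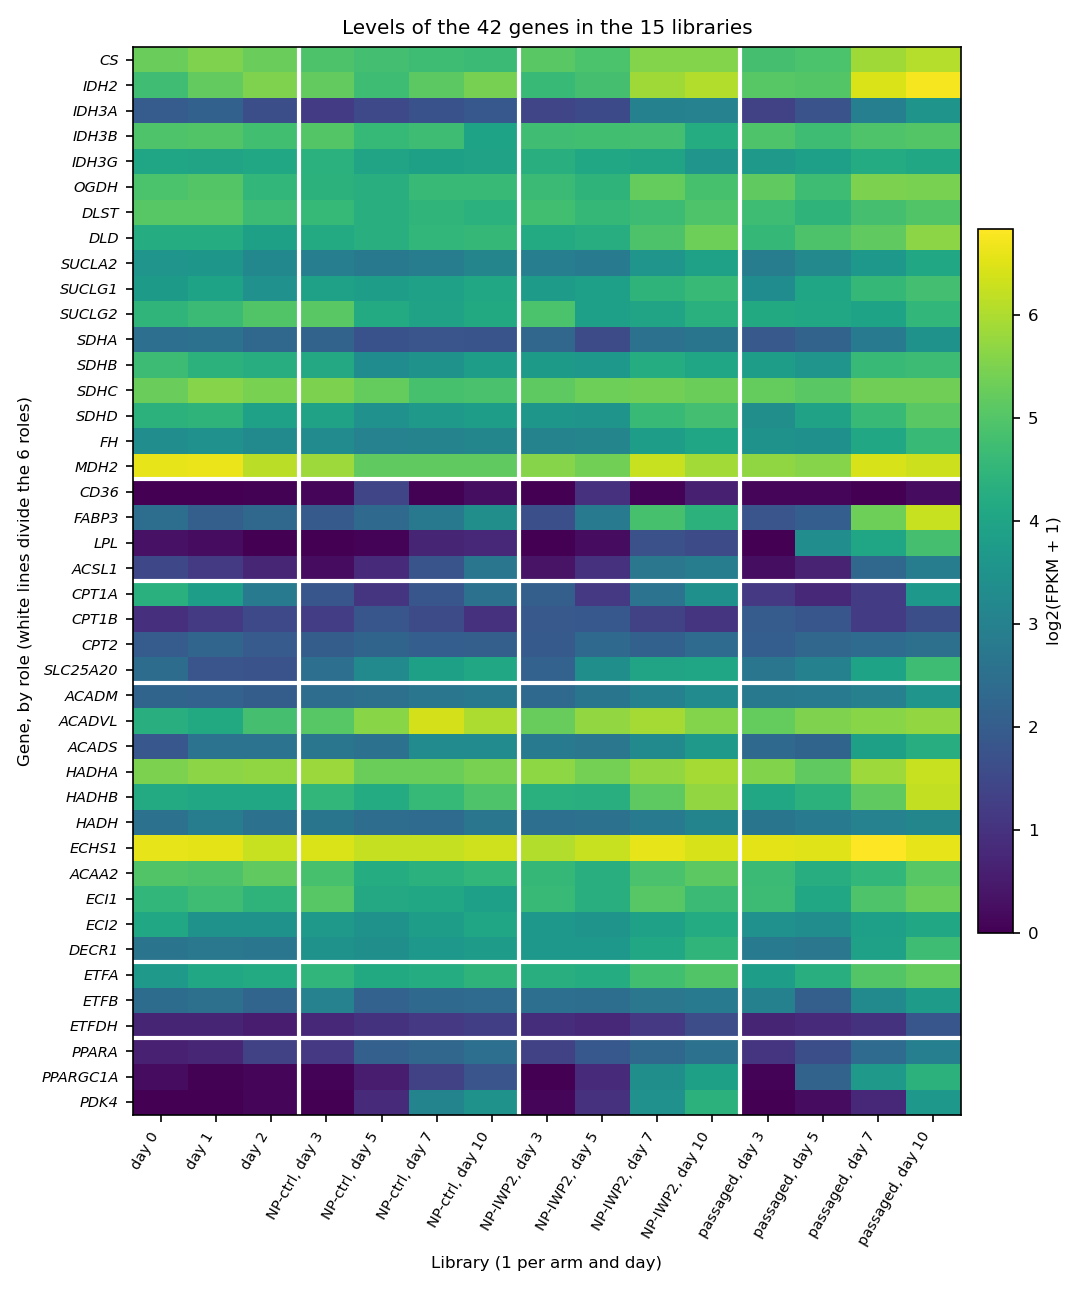
Level of each of the 42 genes, as log2(FPKM + 1), in the 15 libraries. Rows are genes grouped by role and columns are the shared days and the 3 arms by day. In passaged cells on day 10 IDH2 and ECHS1 are brightest, at 107 and 95.0 FPKM, and CD36 stays dark throughout.

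Among the TCA cycle enzymes, summed levels were lower on day 5 than on day 1 in every arm, and by day 10 they were back above those of day 0 in NP-IWP2 and passaged cells but not in NP-ctrl. The summed FPKM of the 17 enzymes was 428, 464 and 394 over days 0, 1 and 2. In NP-ctrl the sum was 374, 285, 297 and 304. In NP-IWP2 it was 334, 306, 466 and 462. In passaged cells it was 342, 335, 547 and 629. The passaged sum on day 10 was 1.47 times that of day 0, while the NP-ctrl sum was 0.711 times that of day 0. The NP-IWP2 sum was 1.08 times that of day 0, with IDH2 at 65.7 against 25.8 FPKM. In that library MDH2, SDHB, IDH3B, IDH3G, OGDH, DLST and SUCLG2 were below their day 0 levels and the other enzymes above.

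CS (chr12:56271699-56300391, minus strand on hg38) encodes citrate synthase, which joins acetyl-CoA to oxaloacetate at the entry of the cycle. CS was at 37.7, 45.2 and 37.7 FPKM on days 0, 1 and 2 and at 29.5, 26.8, 25.4 and 24.2 in NP-ctrl. In NP-IWP2 CS was at 33.3, 28.9, 46.5 and 46.7, and after passaging at 27.4, 28.7, 56.9 and 66.8. The 4 NP-ctrl values were lower on each later day, and from day 7 both other arms lay above every NP-ctrl value. On day 10 the passaged level was 2.75 (95% interval 2.62 to 2.89) times that of NP-ctrl and 1.43 (95% interval 1.38 to 1.48) times that of NP-IWP2.

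IDH2 (chr15:90083045-90102477, minus strand) encodes the NADP-dependent mitochondrial isocitrate dehydrogenase. IDH2 was at 25.8, 35.4 and 44.6 FPKM on days 0, 1 and 2 and at 35.6, 25.3, 33.4 and 42.03 in NP-ctrl. In NP-IWP2 IDH2 was at 23.3, 27.04, 57.1 and 65.7, and after passaging at 32.5, 31.3, 86.3 and 107. Passaged cells held the highest value of the 15 libraries on day 10, at 2.53 (95% interval 2.39 to 2.69) times NP-ctrl. IDH3B encodes a subunit of the NAD-dependent enzyme. IDH3B was at 30.2, 30.6 and 26.4 FPKM on days 0, 1 and 2 and at 31.01, 23.1, 25.2 and 14.5 in NP-ctrl. In NP-IWP2 IDH3B was at 25.5, 26.1, 26.9 and 17.8, and after passaging at 29.9, 25.3, 29.9 and 31.1. The NP-ctrl and NP-IWP2 levels of IDH3B on day 10 were below all their earlier values, while the passaged level was close to those of days 3 and 7.

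OGDH (chr7:44606572-44709066, plus strand) and DLD encode the first and the third component of the oxoglutarate dehydrogenase complex, and DLD also serves pyruvate dehydrogenase. OGDH was at 29.2, 31.3 and 22.2 FPKM on days 0, 1 and 2 and at 19.99, 18.8, 23.8 and 23.7 in NP-ctrl. In NP-IWP2 OGDH was at 24.2, 20.8, 36.1 and 27.8, and after passaging at 35.2, 25.1, 43.9 and 43.3. Passaged cells were the highest of the 3 arms on each of the 4 days. DLD was at 17.98, 17.8 and 13.9 FPKM on days 0, 1 and 2 and at 16.99, 19.1, 22.1 and 22.4 in NP-ctrl. In NP-IWP2 DLD was at 17.3, 18.2, 29.3 and 39.4, and after passaging at 22.5, 29.4, 35.2 and 49.3. DLD was likewise highest in passaged cells on each day, and it overlaps LAMB1 on the opposite strand, which reached 48.8 FPKM. Whether counting used strand is not given in the sources used here, so reads of such a pair cannot be told apart.

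Succinyl-CoA synthetase pairs SUCLG1 with SUCLA2 in its ATP-forming or with SUCLG2 in its GDP-specific form. SUCLA2 was at 10.7, 11.4 and 8.18 FPKM on days 0, 1 and 2 and at 6.55, 5.84, 6.36 and 7.62 in NP-ctrl. In NP-IWP2 SUCLA2 was at 6.53, 5.94, 10.9 and 14.03, and after passaging at 6.28, 8.24, 11.5 and 15.8. SUCLG2 was at 21.2, 24.5 and 30.8 FPKM on days 0, 1 and 2 and at 32.8, 17.1, 14.3 and 16.8 in NP-ctrl. In NP-IWP2 SUCLG2 was at 28.8, 13.6, 14.8 and 19.3, and after passaging at 16.9, 16.1, 14.7 and 22.3. SUCLG2 was highest in NP-ctrl on day 3, whereas SUCLA2 was highest on day 10 in NP-IWP2 and passaged cells. Their FPKM ratio within a library does not depend on scaling between libraries. SUCLA2 to SUCLG2 was 0.506 on day 0 (95% interval 0.469 to 0.547) and on day 3 in NP-ctrl it was 0.200 (0.184 to 0.216). By day 10 the ratio was 0.453 in NP-ctrl (0.410 to 0.501), 0.726 with IWP2 (0.672 to 0.785) and 0.709 after passaging (0.658 to 0.764). The intervals of NP-IWP2 and passaged cells overlapped each other and lay above that of NP-ctrl. Both genes have named pseudogenes and overlapping genes, whose share of their reads could not be told apart.

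SDHA encodes the flavoprotein of succinate dehydrogenase. SDHA was at 4.7, 4.89 and 3.9 FPKM on days 0, 1 and 2 and at 3.52, 2.3, 2.51 and 2.4 in NP-ctrl. In NP-IWP2 SDHA was at 3.77, 2.03, 5 and 5.37, and after passaging at 2.77, 3.55, 6.09 and 10.4. SDHA on day 10 showed the largest difference of the TCA genes between passaged and NP-IWP2 cells, 0.83 on log2(FPKM + 1). This scale shrinks changes of weakly expressed genes. The passaged level was 4.32 (95% interval 3.80 to 4.93) times that of NP-ctrl. Its pseudogenes SDHAP1, SDHAP2 and SDHAP3 make this level uncertain. MDH2 encodes the last enzyme of the cycle and was the most abundant TCA transcript on day 0. MDH2 was at 95.8, 98.9 and 69.5 FPKM on days 0, 1 and 2 and at 56.2, 35.2, 35.2 and 35.2 in NP-ctrl. In NP-IWP2 MDH2 was at 47.1, 40.5, 76.4 and 58.8, and after passaging at 51.5, 47.5, 84.95 and 78.2. MDH2 did not regain its day 0 level in any arm.

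The other 8 TCA genes were IDH3A and IDH3G (subunits of NAD-dependent isocitrate dehydrogenase), DLST (the core of the oxoglutarate complex), SUCLG1, SDHB, SDHC and SDHD (the iron-sulfur and membrane subunits of succinate dehydrogenase) and FH (fumarase). On day 10 they ranged from 2.68 to 28.3 FPKM in NP-ctrl, from 7.19 to 38.6 with IWP2 and from 10.7 to 39.98 after passaging. IDH3A held the lower end and SDHC the upper end in each arm. All 8 were highest in passaged cells on day 10, with the smallest step from NP-ctrl for IDH3G, at 14.3, 10.8 and 15.7 FPKM (NP-ctrl, NP-IWP2, passaged).

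Among the 4 genes of fatty acid uptake and supply, LPL and FABP3 differed widely between the arms on day 10, while ACSL1 lay close together and CD36 was low in all. LPL encodes lipoprotein lipase, which frees fatty acids from lipoproteins at the capillary wall. LPL was at 0.27, 0.17 and 0 FPKM on days 0, 1 and 2 and at 0, 0.05, 0.64 and 0.72 in NP-ctrl. In NP-IWP2 LPL was at 0, 0.17, 2.23 and 2.02, and after passaging at 0, 9.16, 15.1 and 27.3. From day 5 each passaged value lay above every value of the other 2 arms and of the shared days. On day 10 the passaged level was 37.9 (95% interval 27.7 to 53.3) times NP-ctrl and 13.5 (95% interval 11.3 to 16.3) times NP-IWP2. On day 3 the 3 arms were listed at 0 FPKM, with 0 counts each.

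FABP3 (chr1:31365253-31376850, minus strand) encodes the fatty acid-binding protein of heart muscle. FABP3 was at 4.51, 3.22 and 3.92 FPKM on days 0, 1 and 2 and at 2.82, 4.06, 5.77 and 9.41 in NP-ctrl. In NP-IWP2 FABP3 was at 2.17, 5.92, 27.6 and 19.96, and after passaging at 2.46, 3.09, 38.9 and 75.8. The arms lay between 2.17 and 5.92 on days 3 and 5, and both IWP2 and passaging exceeded all of these from day 7. On day 10 passaged cells were at 3.80 (95% interval 3.42 to 4.23) times NP-IWP2 and 8.06 (95% interval 6.89 to 9.46) times NP-ctrl. ACSL1 encodes an acyl-CoA synthetase. ACSL1 was at 1.77, 1.24 and 0.66 FPKM on days 0, 1 and 2 and at 0.16, 0.76, 2.44 and 5.38 in NP-ctrl. In NP-IWP2 ACSL1 was at 0.28, 0.97, 5.58 and 6.46, and after passaging at 0.2, 0.58, 3.94 and 6.36. ACSL1 rose from day 3 in all 3 arms, and its day 10 levels lay within 5.38 to 6.46 FPKM. CD36, a fatty acid transporter of heart and endothelium, stayed close to 0. CD36 was at 0.01, 0 and 0.03 FPKM on days 0, 1 and 2 and at 0.06, 1.68, 0.03 and 0.2 in NP-ctrl. In NP-IWP2 CD36 was at 0.01, 0.95, 0.05 and 0.52, and after passaging at 0.09, 0.08, 0.01 and 0.16. CD36 was highest in NP-ctrl on day 5.

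**Figure D2:**
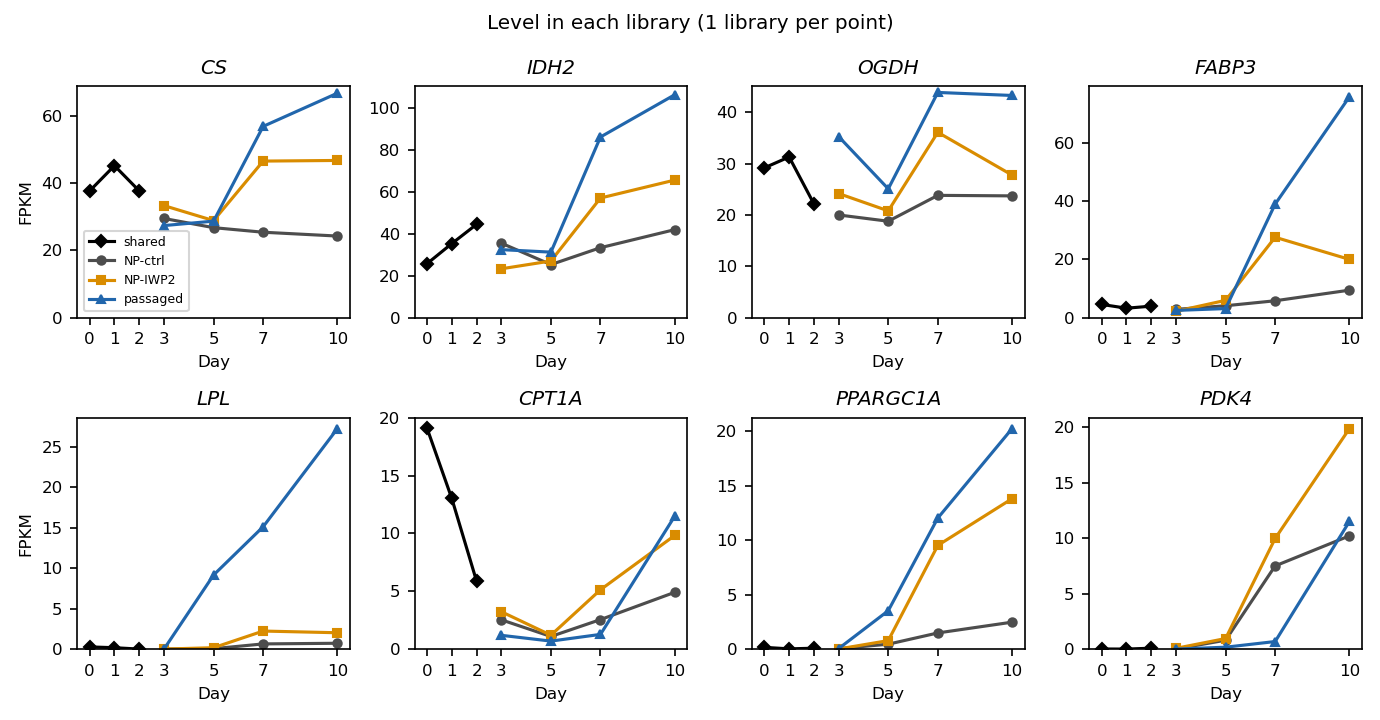
FPKM of 8 genes by day, with shared days in black, NP-ctrl in grey, NP-IWP2 in orange and passaged cells in blue, 1 library per point and linear axes from 0. LPL reaches 27.3 FPKM in passaged cells on day 10 against 0.72 in NP-ctrl, and PDK4 is at 0.68 FPKM in passaged cells on day 7 against 7.49 in NP-ctrl.

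In the carnitine shuttle, CPT1A and CPT1B encode the liver and the muscle form of carnitine palmitoyltransferase 1, the step that commits fatty acids to oxidation. CPT1A was at 19.1, 13.02 and 5.87 FPKM on days 0, 1 and 2 and at 2.53, 1.09, 2.55 and 4.91 in NP-ctrl. In NP-IWP2 CPT1A was at 3.23, 1.2, 5.13 and 9.83, and after passaging at 1.19, 0.69, 1.27 and 11.5. CPT1A (chr11:68754620-68844410, minus strand) was lowest on day 5 in each arm. Passaged cells held the lowest CPT1A of the 3 arms on days 3, 5 and 7 and the highest on day 10. On day 7 their level was 2.01-fold lower (95% interval 1.61 to 2.52) than in NP-ctrl and 4.04-fold lower (95% interval 3.32 to 4.95) than in NP-IWP2. CPT1B was at 0.93, 1.23 and 1.85 FPKM on days 0, 1 and 2 and at 1.38, 2.58, 1.93 and 0.96 in NP-ctrl. In NP-IWP2 CPT1B was at 2.76, 2.72, 1.49 and 1.03, and after passaging at 2.98, 2.54, 1.33 and 2.13. CPT1B stayed between 0.93 and 2.98 FPKM in all 15 libraries.

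The CPT1B to CPT1A ratio of FPKM within a library was 0.0489 (95% interval 0.0376 to 0.0626) on day 0 and 0.316 (95% interval 0.264 to 0.376) on day 2. On day 5 the ratio was 2.37 (95% interval 1.86 to 3.04) in NP-ctrl, 2.26 (95% interval 1.76 to 2.90) with IWP2 and 3.69 (95% interval 2.77 to 4.97) after passaging. On day 10 it was 0.196 (95% interval 0.144 to 0.261) in NP-ctrl, 0.105 (95% interval 0.0807 to 0.134) with IWP2 and 0.185 (95% interval 0.154 to 0.222) after passaging. The liver form thus exceeded the muscle form on day 10 in every arm. CPT1B lies inside the readthrough gene CHKB-CPT1B on the same strand, so its counts are uncertain.

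CPT2 encodes the enzyme that re-forms acyl-CoA in the matrix. CPT2 was at 2.99, 3.73 and 2.9 FPKM on days 0, 1 and 2 and at 3.06, 3.61, 3.15 and 3.2 in NP-ctrl. In NP-IWP2 CPT2 was at 2.8, 4.06, 3.39 and 4.22, and after passaging at 3.12, 3.74, 4.2 and 4.74. CPT2 stayed between 2.80 and 4.74 FPKM in all 15 libraries. SLC25A20 encodes the carnitine-acylcarnitine carrier of the inner membrane, and was at 2.34 FPKM on day 2 and at 16.01, 15.6 and 25.2 on day 10 (NP-ctrl, NP-IWP2, passaged).

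Of the 11 beta-oxidation genes, ACADM encodes the medium-chain acyl-CoA dehydrogenase and HADHA the alpha subunit of the trifunctional protein. ACADM was at 3.64, 3.48 and 3.03 FPKM on days 0, 1 and 2 and at 4.48, 4.73, 5.49 and 5.77 in NP-ctrl. In NP-IWP2 ACADM was at 4.06, 5.27, 7.07 and 8.79, and after passaging at 5.77, 5.92, 6.87 and 10.8. ACADM was highest in passaged cells on day 10. HADHA was at 43.9, 49.5 and 51.4 FPKM on days 0, 1 and 2 and at 54.7, 38.4, 38.4 and 43.3 in NP-ctrl. In NP-IWP2 HADHA was at 49.7, 41.8, 51.9 and 59.5, and after passaging at 45.8, 34.9, 56.2 and 76.3. HADHA was lowest on day 5 in NP-IWP2 and passaged cells and highest in passaged cells on day 10. HADHB, the beta subunit, was at 21.9, 17.4, 22.9 and 29.9 FPKM in NP-ctrl, 19.2, 18.8, 34.3 and 52.1 with IWP2 and 16.1, 20.1, 35.2 and 72.9 after passaging, and it overlaps HADHA head to head on the opposite strand. ACADVL, the very-long-chain dehydrogenase, ran the other way and was highest in NP-ctrl on days 7 and 10, at 82.7 and 62.4 FPKM against 48.2 and 52.1 in passaged cells. The remaining 7 were ECHS1, HADH and ACAA2 (the hydratase, dehydrogenase and thiolase of shorter chains), ACADS (the short-chain dehydrogenase), and ECI1, ECI2 and DECR1 (which prepare unsaturated fatty acids). On day 10 these ranged from 5.43 to 80.7 FPKM in NP-ctrl and from 7.89 to 94.95 in passaged cells, with HADH lowest and ECHS1 highest. DECR1 after passaging lay below NP-ctrl on days 3 and 5, at 5.91 and 5.6 against 10.2 and 9.57 FPKM, and higher on day 10, at 25.3 against 12.7.

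The electron-transferring flavoprotein of ETFA and ETFB hands electrons of beta-oxidation to ETFDH, which feeds them to ubiquinone. ETFB was at 4.33, 4.76 and 3.69 FPKM on days 0, 1 and 2 and at 7.22, 3.45, 4.1 and 4.2 in NP-ctrl. In NP-IWP2 ETFB was at 4.65, 4.52, 5.54 and 5.89, and after passaging at 7.1, 3.17, 8.62 and 12.5. ETFB on day 10 was 0.97 higher in passaged than in NP-IWP2 cells on log2(FPKM + 1), the third largest difference of the fatty acid genes after LPL (3.23) and FABP3 (1.87). ETFDH was at 0.64, 0.62 and 0.43 FPKM on days 0, 1 and 2 and at 0.74, 0.99, 1.2 and 1.4 in NP-ctrl. In NP-IWP2 ETFDH was at 0.85, 0.73, 1.19 and 2.08, and after passaging at 0.63, 0.8, 0.99 and 2.53. ETFDH was low throughout and highest on day 10 in each arm. ETFA reached 20.6, 30.8 and 36.2 FPKM on day 10 (NP-ctrl, NP-IWP2, passaged).

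The regulators differed from each other in their course. PPARA encodes a nuclear receptor activated by fatty acids. PPARA was at 0.55, 0.66 and 1.53 FPKM on days 0, 1 and 2 and at 1.19, 3.26, 3.8 and 4.6 in NP-ctrl. In NP-IWP2 PPARA was at 1.53, 2.66, 3.85 and 4.99, and after passaging at 1.05, 2.15, 4.26 and 6.79. PPARA was higher on each later day in all arms, with passaged cells highest on days 7 and 10. PPARGC1A (chr4:23755041-23904089, minus strand) encodes a coactivator of mitochondrial biogenesis. PPARGC1A was at 0.16, 0.02 and 0.08 FPKM on days 0, 1 and 2 and at 0.04, 0.45, 1.48 and 2.47 in NP-ctrl. In NP-IWP2 PPARGC1A was at 0.01, 0.78, 9.51 and 13.8, and after passaging at 0.05, 3.52, 12.02 and 20.2. PPARGC1A was near 0 to day 3 and then highest in passaged cells on each later day, with NP-IWP2 between the others. On day 10 the passaged level was 8.20 (95% interval 7.35 to 9.17) times NP-ctrl and 1.47 (95% interval 1.39 to 1.55) times NP-IWP2.

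PDK4 (chr7:95583499-95596516, minus strand) encodes a kinase that shuts off pyruvate dehydrogenase and so favours fatty acids over glucose. PDK4 was at 0.01, 0 and 0.08 FPKM on days 0, 1 and 2 and at 0.01, 0.8, 7.49 and 10.2 in NP-ctrl. In NP-IWP2 PDK4 was at 0.07, 0.95, 9.96 and 19.9, and after passaging at 0, 0.17, 0.68 and 11.5. PDK4 was below 1 FPKM in passaged cells to day 7, when both other arms were already high. On day 7 the passaged level was 11.1-fold lower (95% interval 8.18 to 15.4) than in NP-ctrl and 14.8-fold lower (95% interval 10.9 to 20.3) than in NP-IWP2, and on day 10 it was 1.13 (95% interval 1.01 to 1.25) times NP-ctrl.

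The next comparison asked whether TCA cycle and fatty acid genes moved alike between arms on each day. On day 10, all 17 TCA genes and 23 of 25 fatty acid genes had more transcript after passaging than in NP-ctrl, while 37.8% of all genes did. The median difference on log2(FPKM + 1) was 1.05 for the TCA genes and 0.68 for the fatty acid genes, beside -0.09 for all genes. A difference of at least 1 was met by 9 TCA genes and 7 fatty acid genes, against 5.67% of all genes. The 9 were CS, IDH2, IDH3A, IDH3B, DLD, SDHA, SDHD, FH and MDH2, and the 7 were LPL, FABP3, CPT1A, HADHB, ECI1, ETFB and PPARGC1A. TCA genes were among those the study itself examined in these libraries, so their direction is not independent evidence. These differences are between single libraries and carry no test.

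On day 7 the passaged minus NP-ctrl medians were 0.85 for TCA and 0.33 for fatty acid genes, beside -0.07 for all genes. A difference of at least 1 was met by 7 TCA and 3 fatty acid genes, against 4.33% of all genes. On day 5 the medians were 0.25 and -0.11, and the mean of the fatty acid genes, at 0.05, differed in sign from their median. On day 3 they were -0.12 and -0.02, beside 0.03 for all genes. The TCA median lay above the fatty acid median on days 5, 7 and 10, and no difference of 1 or more was seen in either group on day 3.

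For the TCA genes, NP-IWP2 lay nearer to NP-ctrl than passaged cells did on days 5, 7 and 10, while its fatty acid median was 0.12 on day 5 and above that of passaged cells on day 7. On day 7 the medians were 0.69 for TCA and 0.37 for fatty acid genes, and on day 10 they were 0.63 and 0.41, while the median of all genes was -0.01 and 0.00. A difference of at least 1 was met on day 7 by 2 TCA and 2 fatty acid genes, against 2.99% of all genes. On day 10 it was met by IDH3A among the TCA genes and by FABP3 and PPARGC1A among the fatty acid genes, against 3.71%. The comparisons of passaged and NP-IWP2 cells with NP-ctrl share the NP-ctrl libraries.

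Between passaged and NP-IWP2 cells the differences were smaller. On day 10, passaged minus NP-IWP2 had a median of 0.51 over the TCA genes, with 17 of 17 higher in passaged cells, and of 0.23 over the fatty acid genes, with 20 of 25 higher. The median of all genes was -0.06. No TCA gene reached a difference of 1, and LPL and FABP3 did among the fatty acid genes, against 3.07% of all genes. SDHA, IDH3B and IDH2 led the TCA genes, at 0.83, 0.77 and 0.69. PDK4 had the most negative difference, -0.74, at 11.5 FPKM in passaged and 19.9 in NP-IWP2 cells. On day 7 the medians were 0.15 and -0.04, and LPL alone exceeded 1 upward, against 2.31% of all genes, while CPT1A and PDK4 fell below -1.

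**Figure D3:**
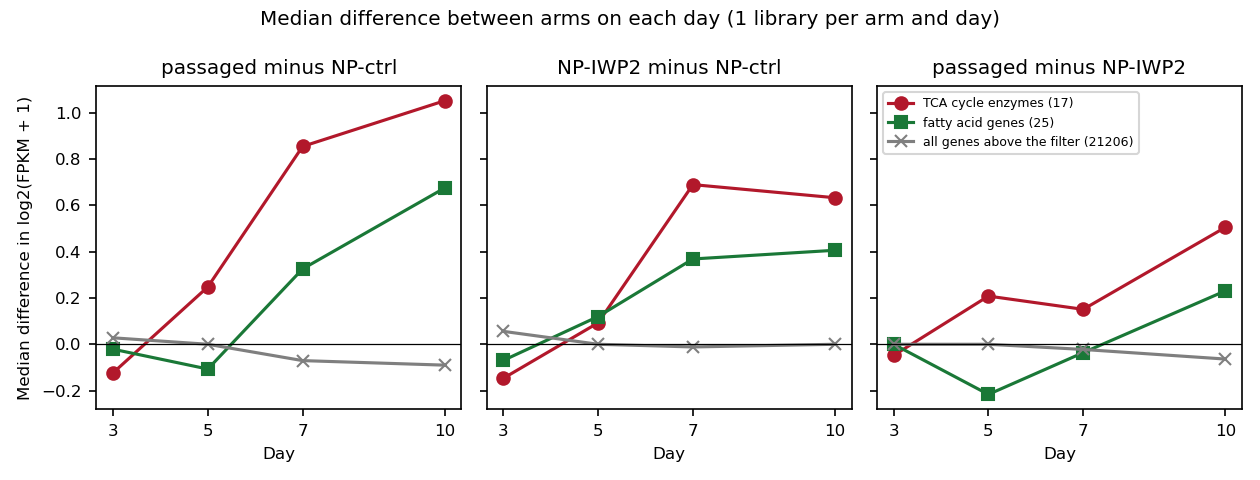
Median difference in log2(FPKM + 1) between arms on each day, for the 17 TCA cycle enzymes (red), the 25 fatty acid genes (green) and all 21206 genes above the filter (grey crosses), with 1 panel per pair of arms. The TCA median reaches 1.05 for passaged minus NP-ctrl on day 10 and lies above the fatty acid median on days 7 and 10 in all 3 panels.

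Within a library, the summed FPKM of the 25 fatty acid genes over that of the 17 TCA genes was higher on day 10 than on day 0 in every arm. The ratio was 0.729, 0.666 and 0.752 on days 0, 1 and 2. It was 0.909, 1.03, 1.23 and 1.26 in NP-ctrl, 0.884, 1.04, 1.01 and 1.09 with IWP2 and 0.904, 0.924, 0.910 and 1.09 after passaging. NP-ctrl had the highest ratio and the lowest TCA sum on days 7 and 10. With geometric means in place of sums the day 10 ratios were 0.51, 0.50 and 0.50 (NP-ctrl, NP-IWP2, passaged), which lay close together. The sum of the 4 uptake genes was 15.7 FPKM in NP-ctrl, 29.0 with IWP2 and 109.6 after passaging on day 10, most of it FABP3 and LPL.

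**Figure D4:**
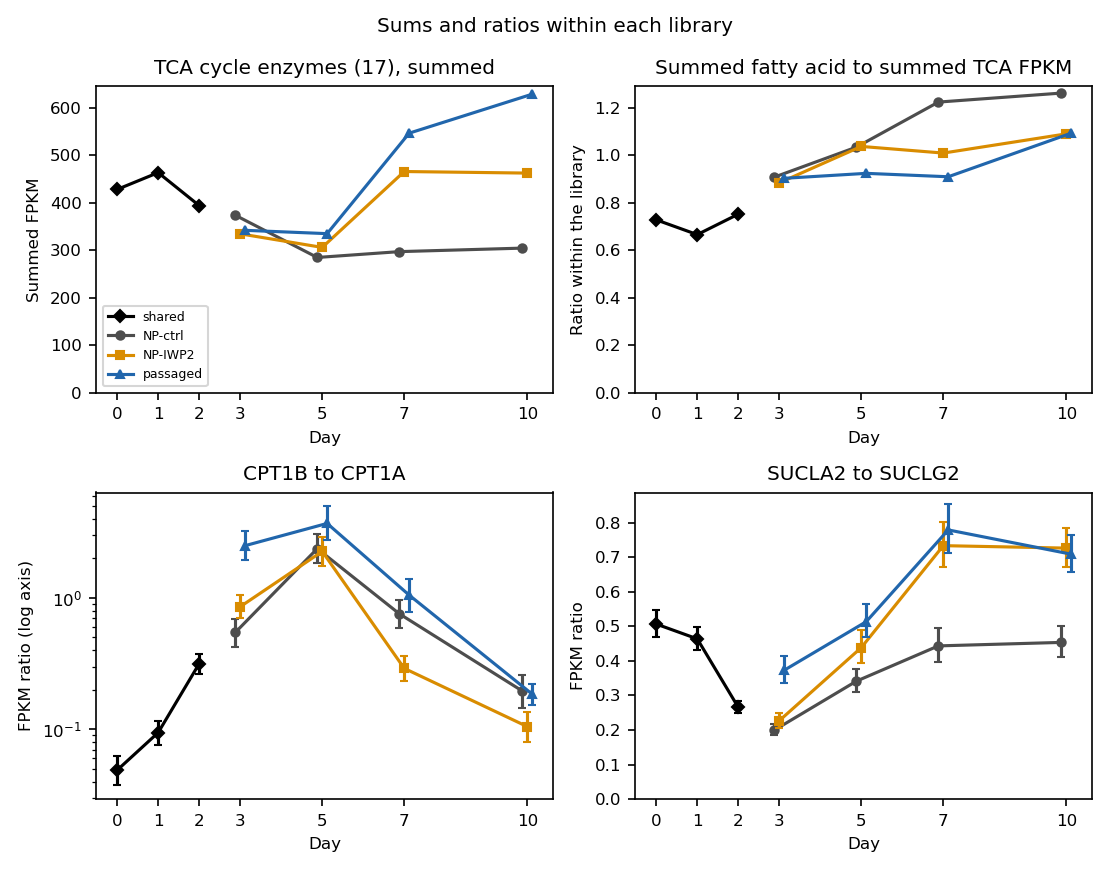
Summed FPKM of the TCA genes, the ratio of summed fatty acid to summed TCA FPKM, CPT1B to CPT1A (log axis) and SUCLA2 to SUCLG2, by day, with shared days in black, NP-ctrl in grey, NP-IWP2 in orange and passaged cells in blue. Bars on the lower panels are 95% counting intervals. The TCA sum ends at 629 in passaged cells and 304 in NP-ctrl, and CPT1B to CPT1A peaks at 3.69 in passaged cells on day 5.

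The starting cells carried the 6 pluripotency markers checked, with 6 of 6 above 1 FPKM and a sum of 1741 FPKM on day 0. Markers of other cell types moved with the arms. On day 10 the 10 cardiomyocyte markers, all above 1 FPKM in each arm, summed to 591 FPKM in NP-ctrl, 1796 with IWP2 and 4327 after passaging. The 10 endoderm and yolk sac markers summed to 4446, 1293 and 19.9, and 8 epicardial and fibroblast markers to 4092, 1122 and 90.6. At 1 FPKM or more were 10, 9 and 2 of the endoderm and yolk sac markers and 8, 8 and 4 of the epicardial and fibroblast ones. Of the 8 endothelial markers, 4, 7 and 1 were at 1 FPKM or more, and KDR, which cardiac progenitors also express, made up 93.04, 100.4 and 119 of sums of 121, 124 and 122 FPKM. Blood and macrophage markers at 1 FPKM or more numbered 0 of 8. Mitochondrial genome transcripts made up 3.72%, 6.02% and 10.3% of counts (NP-ctrl, NP-IWP2, passaged). Fewer cells of a type and less RNA per cell cannot be told apart in these bulk libraries, and the part of these differences in the results for the TCA and fatty acid genes was not tested.

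Effects of the arms over days 3 to 10 were tested on the counts with the quasi-likelihood test of edgeR, with day as a block. The days stand in for replicates, so the error also holds any change of an arm effect with time. Against NP-ctrl, passaged cells had higher LPL, by 5.70 (SE 0.55, adjusted p = 0.00107) on the log2 scale, and higher PPARGC1A, by 2.89 (SE 0.45, adjusted p = 0.00626). OGDH was higher by 0.80 (SE 0.16, adjusted p = 0.0189) and DLD by 0.74 (SE 0.18, adjusted p = 0.0438). These 4 of 42 were called, none lower, where 1.64% of all genes were called higher. OGDH and DLD were higher on each of the 4 days, and LPL and PPARGC1A on each of days 5, 7 and 10. The median log2 change was 0.62 over the TCA genes and 0.30 over the fatty acid genes, beside -0.00253 over all genes. FH at 0.87 (SE 0.25, adjusted p = 0.0746) and IDH3A at 1.07 (SE 0.32, adjusted p = 0.0910) came next without passing. Without day 3, 17 of the 42 were called, and without days 5, 7 and 10 the number was 2, 1 and 3, that without day 10 including PDK4. The calls of OGDH and DLD were lost without each of days 5, 7 and 10, and that of PPARGC1A without day 7, while limma on log2(FPKM + 1) kept OGDH alone.

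Against NP-IWP2, LPL was the only one of the 42 genes called in passaged cells, at 4.07 (SE 0.50, adjusted p = 0.00844), where 0.415% of all genes were called higher. This call was lost without day 7, at an adjusted p of 0.0512, and with limma. PDK4 came next with a negative change (edgeR adjusted p = 0.151). All 17 TCA genes had a positive change in this comparison, with a median of 0.27, and none passed. The share of all genes with a positive change is not given beside this. For NP-IWP2 against NP-ctrl, 0 of the 42 genes were called by edgeR, DESeq2 or limma, where 0.0189% of all genes were called in either direction. An unadjusted p below 0.05 was found for 1 TCA and 3 fatty acid genes. The 0.0189% is for the adjusted p, and no share of all genes stands beside the unadjusted counts. PPARGC1A was at 1.86 (SE 0.45, adjusted p = 0.593) and was called, among the alternatives run, when these 2 arms were fitted alone (edgeR adjusted p = 0.0383) or with no filter (4.8e-06).

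Because the arms may diverge with time, a slope over the day was fitted in each arm. In passaged cells 22 of the 42 genes rose with time and none fell, where 7.57% of all genes rose. These were 9 of 17 TCA genes (CS, IDH2, IDH3A, DLD, SUCLA2, SUCLG1, SDHA, SDHD and FH) and 13 of 25 fatty acid genes (FABP3, ACSL1, CPT1A, SLC25A20, ACADM, ACADS, HADHB, ECI2, DECR1, ETFA, ETFDH, PPARA and PDK4). IDH3A rose by 0.46 per day (SE 0.08, adjusted p = 0.00811), HADHB by 0.36 per day (SE 0.04, adjusted p = 0.00193) and PDK4 by 1.34 per day (SE 0.27, adjusted p = 0.0109). In NP-IWP2, 12 of the 42 rose, where 5.14% of all genes did, and all 12 were among the 22. They were 6 TCA genes (IDH2, IDH3A, DLD, SUCLA2, SDHD and FH) and 6 fatty acid genes (ACSL1, ACADM, HADHB, ETFDH, PPARA and PDK4), of which IDH2 and PPARA passed narrowly, with adjusted p of 0.04996 and 0.049995. In NP-ctrl only ACSL1 rose, by 0.69 per day (SE 0.16, adjusted p = 0.0428), where 2.60% of all genes did. Leaving out days 3, 5, 7 and 10 in turn gave 13, 17, 15 and 4 rising genes in passaged cells and 3, 2, 2 and 3 in NP-IWP2. In NP-ctrl it gave 0, 0, 1 and 2. The shares of all genes that rose in these refits are not given beside them.

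The difference in slope between arms was itself tested. For passaged minus NP-ctrl, 0 of the 42 genes passed in edgeR, where 0.160% of all genes did. An unadjusted p below 0.05 was found for 15 TCA and 12 fatty acid genes, and the difference was positive for 17 of 17 and 24 of 25. DESeq2 called 8 of the 42 and limma 0. DECR1 and HADHB came nearest, at 0.32 (SE 0.07, adjusted p = 0.0825) and 0.28 (SE 0.06, adjusted p = 0.0857) per day. For NP-IWP2 minus NP-ctrl, 0 passed in edgeR, DESeq2 or limma, with 5 TCA and 4 fatty acid genes at an unadjusted p below 0.05 and 0% of all genes called. For passaged minus NP-IWP2, 0 passed in these tools, with 1 TCA and 1 fatty acid gene at an unadjusted p below 0.05 and 0.00472% of all genes called. The shares of all genes given here are for the adjusted p in edgeR. The DESeq2 count, the counts at an unadjusted p and the counts of positive differences stand without such a share.

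**Figure D5:**
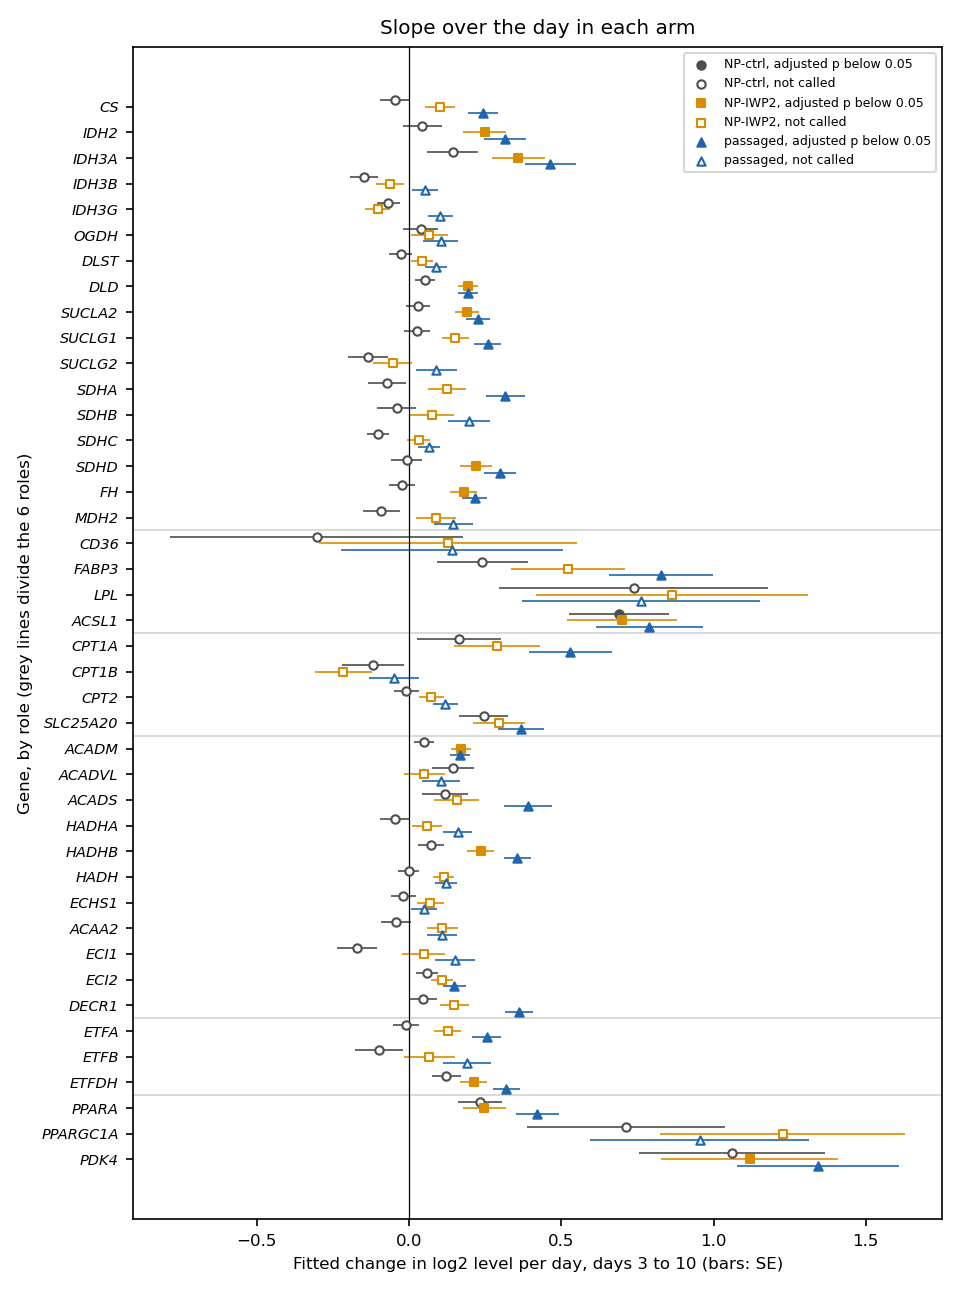
Fitted change in log2 level per day over days 3 to 10 for each of the 42 genes, with NP-ctrl in grey, NP-IWP2 in orange and passaged cells in blue. Filled points have an adjusted p below 0.05 and bars are 1 SE. Filled blue points number 22, filled orange points 12 and filled grey points 1.

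From day 2 to day 10, 8 fatty acid genes and no TCA gene were higher by at least 1 on log2(FPKM + 1) in NP-ctrl, where 15.6% of all genes were. In NP-IWP2 these numbers were 12 fatty acid and 3 TCA genes, against 16.1%. In passaged cells they were 14 and 7, against 12.9%. The median difference was -0.17 for TCA and 0.69 for fatty acid genes in NP-ctrl, 0.31 and 0.79 with IWP2, and 0.87 and 1.30 after passaging. The fatty acid genes thus had a positive median in all 3 arms, and the TCA genes only in NP-IWP2 and passaged cells.

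Other genes of the pathways, from lists chosen by function, were read beside the 42. They were tested in the same edgeR fits. Of 21 further TCA and pyruvate entry genes, 10 rose over days in passaged cells and 1 fell, 2 rose in NP-IWP2 and 1 in NP-ctrl. Of all genes, 7.57% rose and 8.30% fell in passaged cells, and 5.14% rose in NP-IWP2 and 2.60% in NP-ctrl, so the counts in NP-IWP2 and NP-ctrl were near the shares of all genes. MDH1, the cytosolic malate dehydrogenase, was at 32.1, 101 and 146 FPKM on day 10 (NP-ctrl, NP-IWP2, passaged), and MPC1, a subunit of the mitochondrial pyruvate carrier, at 14.8, 24.3 and 38.3. PC, pyruvate carboxylase, was the one that fell in passaged cells, by 0.37 (SE 0.05, adjusted p = 0.00286) per day. None of the 21 passed between passaged cells and NP-ctrl over days in edgeR, with 9 at an unadjusted p below 0.05. No share of all genes at that unadjusted threshold is given beside these 9.

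Of 31 further fatty acid genes, 28 passed the filter, and of these 9 rose over days in passaged cells, 3 in NP-IWP2 and 4 in NP-ctrl, and none fell, beside the same 7.57%, 5.14% and 2.60% of all genes. In the arm contrast of passaged cells with NP-ctrl, ACACB, which makes the malonyl-CoA that blocks CPT1, was higher by 1.16 (SE 0.23, adjusted p = 0.0179). ANGPTL4, an inhibitor of lipoprotein lipase, changed by -1.20 (SE 0.24, adjusted p = 0.0180) and SLC22A5, the carnitine importer, by -1.41 (SE 0.29, adjusted p = 0.0203), both lower in passaged cells. Of all genes 1.64% were called higher and 2.76% lower in this comparison. ANGPTL4 was at 13.1, 10.3 and 5.1 FPKM and SLC22A5 at 4.23, 1.93 and 1.16 on day 10 (NP-ctrl, NP-IWP2, passaged). ACADL, the long-chain acyl-CoA dehydrogenase, was at 0.3, 0.47 and 4.82 and ACOT2, a mitochondrial thioesterase, at 11.4, 13.97 and 43.7.

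Of 14 further regulators, 13 passed the filter, and ESRRA, encoding an estrogen-related receptor, was the 1 called between passaged cells and NP-ctrl, at 0.86 (SE 0.20, adjusted p = 0.0365), and it was at 8.38, 13.4 and 22.1 FPKM on day 10. ESRRG, a second receptor of this family, was at 1.64, 7.49 and 16.1 on day 10 and rose over days in passaged cells by 0.89 (SE 0.19, adjusted p = 0.0153) and in NP-IWP2 by 0.95 (SE 0.21, adjusted p = 0.0251) per day. PPARG was at 0.44, 0.17 and 0.02 and the transcript of NRF1 at 6.04, 6.48 and 4.82. GABPA, an ETS factor, was at 14.2, 21.3 and 17.6 FPKM.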

How the data were processed

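The deposited table held counts per gene, beside FPKM, for 15 bulk RNA-seq libraries. Per the labels and processing notes the authors trimmed reads with cutadapt 1.9.1, aligned them to hg38 with HISAT2 2.0.1, counted with HTSeq 0.6.1 and used DESeq2. FPKM deposited by the authors divide counts by exonic length and library total, and recomputed values differed by at most 0.005. The genes and lists were chosen with earlier results of these data known. Counts of the 21206 genes at 1 FPKM or more in at least 1 library were fitted with edgeR (TMM, quasi-likelihood, Benjamini-Hochberg over all genes, called below 0.05) over the 12 libraries of days 3 to 10, with arm and day as a block, or a slope per arm. Single-library differences used log2(FPKM + 1), called at 1, without a test. Ratios of counts have exact 95% intervals for counting error. Genes printed library by library were fixed by role and by the 3 largest day 10 differences between passaged and NP-IWP2 cells in each group. Genes called in an arm contrast were printed as well, which is how DLD was chosen. Scripts were tested on simulated data. RefSeq windows came from GRCh38.p14.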

Additional observations from a re-analysis of the deposited data

Results flagged for a closer look

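In 11 cases passaged and NP-IWP2 cells lay on opposite sides of NP-ctrl on the same day. Each had a counting interval that left out equality. No share of all genes stands beside these cases, so whether 11 is more than other genes would give cannot be read here. The values are the passaged minus NP-IWP2 difference on log2(FPKM + 1), both arms share the NP-ctrl library of that day, and none of these differences between arms was tested. On day 3 the difference was -0.27 for CS, -0.95 for CPT1A and -0.85 for DECR1, with passaged cells lower. On that day it was 0.44 for FH, 0.42 for ACADM and 0.51 for ECHS1, with passaged cells higher. The passaged library of day 3 was also the one with the lowest mitochondrial genome share, and the part of this in these values was not tested. On day 5 the difference was -0.24 for ACADVL, -0.25 for HADHA and -0.92 for DECR1. On day 7 it was -1.43 for CPT1A, the rate-limiting enzyme of fatty acid import, and -2.71 for PDK4, the pyruvate dehydrogenase kinase.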

How the results depend on the processing

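Depth limits LPL, CD36 and PDK4, among others, which were near 0 in many libraries, and with 1 library per arm and day an arm effect cannot be told apart from a library. Robust dispersions and lists without overlapping or near-identical genes were chosen after seeing the data. The number of the 42 genes called for passaged against NP-ctrl was 4, and it was 1 with limma, 12 with no filter, 1 with a mean FPKM of at least 5, 2 with a fold threshold of 1 and 2 with only these arms fitted. For passaged against NP-IWP2 the 1 call became 3 with DESeq2, 0 with limma, 3 with no filter and 0 under a mean FPKM floor of 5. For NP-IWP2 against NP-ctrl the 0 calls became 2 with no filter and 1 with only these arms. Rising genes in NP-ctrl numbered 5 with DESeq2, 2 with limma, 5 with log2 of the day, 0 with a mean FPKM of at least 5 and 0 with robust dispersions. DESeq2 gave 19 rising genes in NP-IWP2 and 8 differences in slope between passaged cells and NP-ctrl. Leaving out each day in turn gave 1 to 17 calls for passaged against NP-ctrl, 0 to 2 against NP-IWP2, 0 to 2 rising genes for NP-ctrl, 2 to 3 for NP-IWP2 and 4 to 17 for passaging. The mean FPKM floor of 5 removed LPL, PPARGC1A and ACSL1 before the fit, so their calls could not appear under it. The cause of the other changes was not tested. The shares of all genes called under these settings are not given, so the counts cannot be read against them.

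TPM turned the TCA median on day 3 to 0.16 for passaged minus NP-ctrl and to 0.11 for passaged minus NP-IWP2, but this rescaling moved all genes of a library alike and their medians to 0.28 and 0.077. It moved the day 10 medians to 0.80 for TCA and 0.52 for fatty acid genes against NP-ctrl and to 0.29 and 0.051 against NP-IWP2, with the median of all genes at -0.38 and -0.28. Median-of-ratios scaling gave TCA medians of 1.23 and 0.67 and a fatty acid median of 0.40 against NP-IWP2. Means gave 0.92 and 0.43 for the fatty acid genes, and a mean FPKM of at least 5 gave 0.40 for TCA against NP-IWP2. Without overlapping or near-identical genes, the passaged minus NP-IWP2 median turned to 0.17 for TCA on day 3 and to 0.42 for fatty acid genes on day 7, and on day 10 it was 0.64 and 0.39. The same lists gave 0.40 and 0.60 for NP-IWP2 minus NP-ctrl and 1.01 for fatty acid genes in passaged minus NP-ctrl on day 10. Out of those 10 genes, 3 TCA and 2 fatty acid genes were higher by at least 1 in passaged cells than in NP-ctrl, and 1 fatty acid gene against NP-IWP2. For NP-IWP2 against NP-ctrl the numbers were 0 and 0, and IDH3A, FABP3 and PPARGC1A, which reached 1 there, were not on these lists. For NP-IWP2 against NP-ctrl on day 10 such TCA genes numbered 2 with TPM, 2 with a pseudocount of 0.1 and 0 at a mean FPKM floor of 5, and such fatty acid genes 4 with a pseudocount of 0.1 and 1 at that floor. That mean left 1 such gene for passaged against NP-IWP2. IDH3A, PPARGC1A and LPL, counted in the main setting, lay below that floor and could not be counted under it. No share of all genes at a difference of 1 is given for these alternatives. At a threshold of 0.5 in either direction the TCA and fatty acid numbers on day 10 were 14 and 16 for passaged against NP-ctrl, 11 and 11 for NP-IWP2 against NP-ctrl and 9 and 9 for passaged against NP-IWP2. These numbers stand without the share of all genes past 0.5, so they cannot be read against it. The fatty acid to TCA ratio with geometric means took values on day 7 of 0.43, 0.40 and 0.32 and on day 10 of 0.51, 0.50 and 0.50 (NP-ctrl, NP-IWP2, passaged). With counts it was 1.28 and 0.88 on day 7 in NP-ctrl and passaged cells and 1.33 and 1.15 on day 10 in NP-ctrl and NP-IWP2.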
